A study of Mus musculus with 8 samples.

Results

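RNA of mouse bone marrow-derived macrophages that carried a short hairpin RNA labelled TMBIM6sh was compared with RNA of the same cells carrying the hairpin labelled NCsh, both cultured without RANKL. The 4 libraries of this comparison, 2 for each hairpin, were chosen by the sample titles from 8 libraries in all; the other 4 carried the same hairpins with RANKL at 100 ng/ml for 24 h. The cells came from the femurs and tibias of C57BL/6 mice aged 6 to 8 weeks. Marrow was kept for 16 h in medium with 10% FBS and M-CSF at 5 ng/ml. The non-adherent cells were then grown for 3 days in M-CSF at 30 ng/ml, and the cells that adhered were used. All 4 groups shared M-CSF at 30 ng/ml. The treatment text of every sample names RANKL, so its absence from these 4 libraries rests on their titles and treatment labels. The labels do not spell out NCsh, do not give the hairpin sequences or the delivery vector, and name a single hairpin against Tmbim6, so what came from lower Tmbim6 and what the hairpin did otherwise cannot be told apart. Nor do they say whether the duplicates came from separate mice or cultures, so p-values measure the spread between libraries, which may be technical.

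TMBIM6, also called BAX inhibitor-1, is a protein of the endoplasmic reticulum (ER) membrane with several membrane-spanning segments. It was found as a suppressor of cell death caused by BAX. It is known for lowering the calcium content of the ER and for damping IRE1, a sensor of the unfolded protein response. Macrophages grown in M-CSF are the precursors of osteoclasts, which form when RANKL is added, and without RANKL they remain phagocytes that can still divide. The series concerns loss of TMBIM6 and osteoclast formation, and the libraries without RANKL show how the hairpin groups differed before that stimulus.

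Tmbim6 itself (chr15:99392947-99410049 in mm10, plus strand) had 330 and 334 RPKM in the NCsh libraries and 11.1 and 11.7 RPKM in the TMBIM6sh libraries. TMBIM6sh libraries thus kept 3.44% of the NCsh mean, and the groups were far apart. The log2 difference was -4.74 (SE 0.0574, adjusted p = 6.52e-11), where log2 differences here and below are TMBIM6sh minus NCsh on the log2(RPKM + 1) scale, RPKM being reads per kilobase of exon scaled to the depth of the library. Of 13 other listed genes within 200 kb of Tmbim6, 7 had enough reads to be tested and none was called. The nearest to a call was Spats2, with 8.24 and 9.49 RPKM in NCsh and 10.8 and 10.7 RPKM in TMBIM6sh and an adjusted p of 0.0543.

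The 8 libraries held 25476000 to 28595000 reads, of which 83.5% to 86.4% lay in exons. The NCsh duplicates without RANKL were the least alike of the 4 pairs, with a median absolute log2 difference between duplicates of 0.115 against 0.0742 in TMBIM6sh without RANKL. In the fifth of tested genes with the shortest exons, up to 1398 bases, NCsh library 2 had a median 0.195 above NCsh library 1 on the log2 scale, and in the fifth with the longest exons the same difference was -0.097. The part of this length pattern in the results was not tested. For some gene lists the counts without NCsh library 2 are given. Counts given without such a value can move with this library too. Macrophage markers were abundant in all 4 libraries, with a summed level of 9854 and 11265 RPKM in NCsh and 9075 and 9075 RPKM in TMBIM6sh. Of its 12 genes, 11 were tested and 1, the mannose receptor gene Mrc1, was called lower, or 2 without NCsh library 1. The marker sums of the other cell types stood at 10.8 RPKM or less in each library for dendritic, stromal and endothelial, lymphocyte, and erythroid, mast and basophil cells. The neutrophil sum was 22.6 and 28.1 RPKM in NCsh and 15.5 and 11.5 RPKM in TMBIM6sh, nearly all of it from S100a8, which fell (log2 -0.86, adjusted p = 0.00351), while Ly6g was at 0 in these libraries. The part of S100a8-expressing cells in the results below was not tested.

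Of 11040 genes tested, 2673 were called at an adjusted p under 0.05 (24.2%), 1147 higher (10.4%) and 1526 lower (13.8%) in TMBIM6sh libraries. Most differences were modest. The median ratio of means was 1.34 for genes that rose and 0.711 for genes that fell. At least 2-fold differences were found for 71 genes that rose and 160 that fell, and at least 4-fold ones for 9 and 15, or 0.643%, 1.45%, 0.0815% and 0.136% of tested genes. Both TMBIM6sh libraries lay above both NCsh libraries for 27.7% of tested genes and below both for 33.9%, 61.6% in all. The count in either direction was 1401 without TMBIM6sh library 1 and 1396 without TMBIM6sh library 2. The median of all tested genes was -0.021, and -0.005 with median-ratio scaling. Genes with more exon sequence were called higher more often. The share was 4.93% in the shortest of 5 length classes (up to 1398 bases) and 15.1% in the longest (4479 bases or more). The share called lower lay between 11.6% and 15.5% in each of the 5 length classes. The length trend of the median log2 difference changed direction with the replicate. For TMBIM6sh minus NCsh replicate 2 the median was -0.157 in the shortest class and 0.061 in the longest. For replicate 1 these medians were 0.021 and -0.027. The part of NCsh library 2 in the trend of the calls was not tested. Bulk RNA cannot tell fewer cells of a type from less RNA per cell, which applies to each result below. The counts of the gene lists below stand against 10.4% higher and 13.8% lower among all tested genes.

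**Figure D1:**
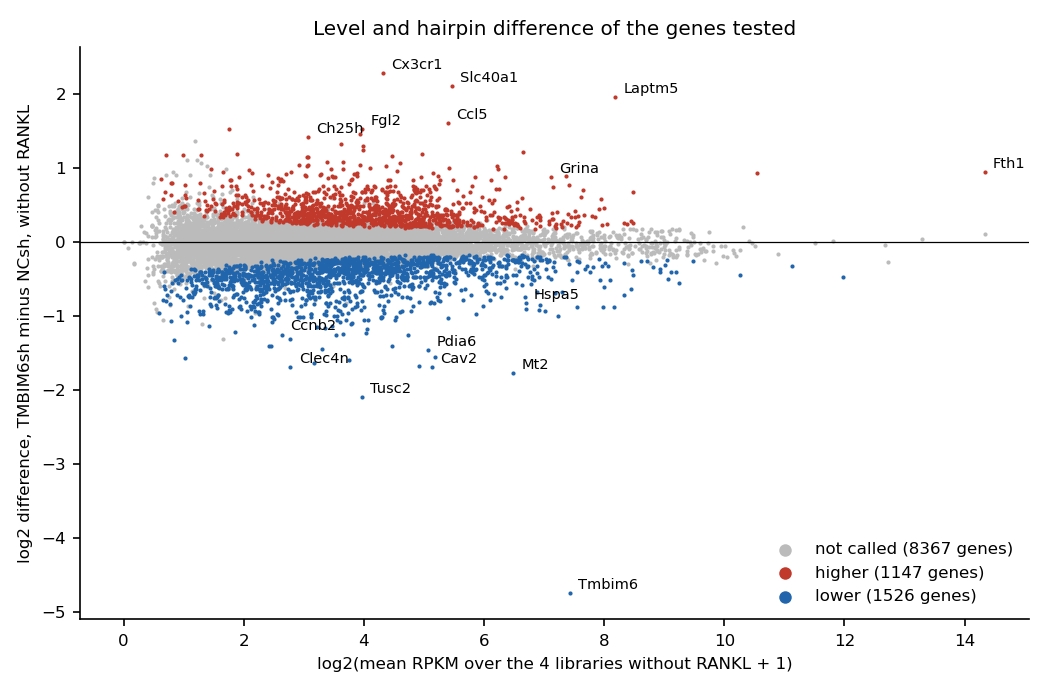
Each point is 1 of the 11040 genes tested: the x axis is the log2 of the mean RPKM over the 4 libraries without RANKL plus 1, the y axis the log2 difference of TMBIM6sh minus NCsh. Red points (1147 genes) were called higher and blue points (1526) lower. Tmbim6 lies at -4.74. Among the other called genes with at least 5 RPKM in the higher group and groups that did not overlap, differences lie between -2.09 and 2.28.

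The protein-folding machinery of the ER, the compartment in which TMBIM6 resides, was lower in TMBIM6sh libraries in part. Among 22 tested genes of ER folding, 8 fell and 1 rose, against 13.8% and 10.4% of all genes, with a median log2 difference of -0.15. The falls were led by Pdia6, Hspa5 and Calr. The upstream regions of these 3 genes are shown because each holds the ER stress response element, the sequence through which ATF6 and XBP1 act on chaperone genes: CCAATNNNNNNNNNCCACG, searched on both strands. Among promoter windows of 300 bases (250 before and 50 after the start; RefSeq, GRCm38.p6), it was found in 7 of the 16 ER folding genes with a window and in 0.140% of the 8576 tested genes with one. In each sequence the match is in capitals and the last 20 bases follow the start site.
Hspa5, chr2:34771840-34772109, plus strand: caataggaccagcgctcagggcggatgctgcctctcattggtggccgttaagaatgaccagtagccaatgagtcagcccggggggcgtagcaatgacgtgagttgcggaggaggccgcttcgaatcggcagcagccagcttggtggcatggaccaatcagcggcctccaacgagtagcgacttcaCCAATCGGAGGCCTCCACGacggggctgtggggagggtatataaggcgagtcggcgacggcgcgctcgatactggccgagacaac
Calr, chr8:84846912-84847181, minus strand: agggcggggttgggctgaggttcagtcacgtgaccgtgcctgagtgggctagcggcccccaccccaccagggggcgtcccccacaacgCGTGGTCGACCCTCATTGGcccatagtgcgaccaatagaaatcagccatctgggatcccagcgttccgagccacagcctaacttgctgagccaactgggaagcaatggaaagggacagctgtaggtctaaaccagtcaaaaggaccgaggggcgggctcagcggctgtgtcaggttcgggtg
Pdia6, chr12:17266339-17266608, plus strand: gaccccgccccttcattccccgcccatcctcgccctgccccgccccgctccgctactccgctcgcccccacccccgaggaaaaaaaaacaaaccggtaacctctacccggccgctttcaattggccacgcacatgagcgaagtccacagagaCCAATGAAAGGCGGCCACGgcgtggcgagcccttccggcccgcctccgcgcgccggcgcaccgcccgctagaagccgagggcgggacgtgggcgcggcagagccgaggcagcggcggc
The match began 65 bases before the start in Hspa5, 162 in Calr, where it lies on the opposite strand, and 98 in Pdia6. A match describes the letters and does not show binding.

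Pdia6, a disulfide isomerase of the ER, had 46.8 and 49.4 RPKM in the NCsh libraries and 18.2 and 15.6 RPKM in the TMBIM6sh libraries. Its duplicates differed little and the groups did not overlap (log2 -1.46, SE 0.0809, adjusted p = 9.41e-06). Hspa5, which encodes the chaperone BiP, had 128 and 135 RPKM in NCsh and 74.6 and 73.7 RPKM in TMBIM6sh (log2 -0.82, adjusted p = 6.28e-05). Calr, the calcium-binding chaperone calreticulin, had 189 and 197 RPKM in NCsh and 119 and 121 RPKM in TMBIM6sh (log2 -0.68, adjusted p = 1.15e-04). All 3 were higher in both NCsh libraries. Hsp90b1, the fourth called gene with the element, encodes the chaperone GRP94 and had 73.9 and 78.5 RPKM in NCsh and 58.5 and 60.9 RPKM in TMBIM6sh (adjusted p = 0.0293). Canx, Dnajc3 and Creld2 hold the element too, and their log2 differences of -0.15, -0.15 and 0.06 were not called, so genes with the element did not all differ. Ero1l, the oxidase that recharges disulfide isomerases, fell (log2 -0.46), as did Pdia4 (log2 -0.39), Sdf2l1 (log2 -0.42) and P4hb (log2 -0.21). Txndc5, another member of the disulfide isomerase family, went the other way, with 23.9 and 24.2 RPKM in NCsh and 32.9 and 34.0 RPKM in TMBIM6sh (log2 0.46, adjusted p = 8.14e-04). The calls of Hsp90b1, Sdf2l1 and P4hb were lost without NCsh library 2 or either TMBIM6sh library, which left 5 falls, and that of P4hb also without either NCsh library with RANKL.

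Genes that sense ER stress or clear misfolded proteins gave 7 falls and 1 rise among 19 tested (median -0.14). Hsp90b1, already counted among the ER folding falls, is in this list too. Atf6, a membrane-bound transcription factor of the unfolded protein response, had 16.2 and 15.3 RPKM in NCsh and 9.48 and 8.37 RPKM in TMBIM6sh (log2 -0.76, adjusted p = 1.84e-04). Its relative Atf6b had 17.1 and 17.6 RPKM in NCsh and 24.4 and 24.3 RPKM in TMBIM6sh (log2 0.47, adjusted p = 0.00455). The 2 ATF6 genes thus moved in opposite directions. Xbp1, whose mRNA is spliced by IRE1, had 29.9 and 33.2 RPKM in NCsh and 20.6 and 20.2 RPKM in TMBIM6sh (log2 -0.60, adjusted p = 5.02e-04); gene-level values do not tell spliced from unspliced Xbp1. Herpud1 (log2 -0.47) and Derl1 (log2 -0.41), both parts of ER-associated degradation, and Mbtps2 (log2 -0.49), the site-2 protease that releases ATF6, fell. Ern1, which encodes IRE1 itself, had 18.4 and 16.4 RPKM in NCsh and 14.5 and 14.9 RPKM in TMBIM6sh (log2 -0.23, adjusted p = 0.0431), a call that was kept in only 6 of the 17 alternatives and was lost when any of the 8 libraries other than NCsh library 2 without RANKL was left out. Eif2ak3, which encodes PERK, had a log2 difference of -0.12 that was not called. Of 26 translocation and glycosylation genes 4 fell and 2 rose, near the background. They include the signal peptidase subunit Spcs3 (log2 -0.64) and the translocon-associated Ssr1 (log2 0.55), which moved in opposite directions. Their lower count was 11 without NCsh library 1, 2 without NCsh library 2 or either RANKL-treated NCsh library, and 1 without either TMBIM6sh library, and 1 rose without NCsh library 1 or either TMBIM6sh library.

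In the integrated stress response, the programme driven by ATF4, 8 of 21 tested genes fell and 2 rose (median -0.19). Ddit3, which encodes CHOP, had 41.3 and 52.1 RPKM in NCsh and 27.3 and 26.0 RPKM in TMBIM6sh (log2 -0.78, adjusted p = 5.04e-04). Trib3, a pseudokinase induced by CHOP, had a log2 difference of -0.52. Asns, asparagine synthetase, had one of -0.45 and the cystine transporter gene Slc7a11 one of -0.42. Atf4 differed by -0.26 (adjusted p = 0.0201), a call that was lost without NCsh library 2 or either TMBIM6sh library. Psat1, the second enzyme of serine synthesis, was among the 2 that rose. It had 8.23 and 10.1 RPKM in the NCsh libraries and 18.5 and 18.1 RPKM in the TMBIM6sh libraries (log2 0.93, adjusted p = 1.26e-04). The first enzyme, Phgdh, fell (log2 -0.41, adjusted p = 0.0191), which was lost without the same 3 libraries. The number that fell was 5 without NCsh library 2 and 5 without TMBIM6sh library 1, and 1 rose without TMBIM6sh library 2.

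Genes for ER and store calcium were called at 3 rises and 3 falls among 20 tested. Grina, also known as TMBIM3, is a relative of Tmbim6 in the same protein family. It had 95.9 and 98.5 RPKM in the NCsh libraries and 174 and 184 RPKM in the TMBIM6sh libraries. Both TMBIM6sh libraries were higher by a wide margin (log2 0.87, SE 0.0633, adjusted p = 3.00e-05). Stim2, a sensor of ER calcium, had 5.65 and 5.48 RPKM in NCsh and 8.24 and 9.09 RPKM in TMBIM6sh (log2 0.56, adjusted p = 0.00102), and Mcu, the mitochondrial calcium uniporter, had a log2 difference of 0.41. Beside Calr, the ER iron-sulfur protein gene Cisd2 (log2 -0.27) and the IP3 receptor gene Itpr1 (log2 -0.35) fell, and the ER calcium pump gene Atp2a2 was not called (log2 -0.16). The falls numbered 1 without either TMBIM6sh library, where Cisd2 and Itpr1 were no longer called. Their calls were lost without NCsh library 1 too, that of Itpr1 also without NCsh library 2, and that of Mcu without NCsh library 2 or TMBIM6sh library 2.

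Among the TMBIM and BCL-2 families 4 of 20 tested genes rose and 4 fell, Tmbim6 itself not being in this count. The other TMBIM genes that fell were Tmbim4 (log2 -0.57), Tmbim1 (log2 -0.27) and Ghitm (log2 -0.23), so Grina was the family member that rose. Bak1, a pore-forming death effector, had 61.6 and 59.7 RPKM in NCsh and 45.9 and 46.1 RPKM in TMBIM6sh (log2 -0.39, adjusted p = 0.00289). Its relative Bax had a log2 difference of 0.03 and was not called. The anti-death genes Bcl2a1d (log2 0.67) and Bcl2a1b (log2 0.42) rose; they are near-identical copies, and how reads were split between them is uncertain. Mcl1 (log2 0.05) and Bcl2l1 (log2 -0.17) were not called. The number that fell was 2 without TMBIM6sh library 1 or 2, where Tmbim1 and Ghitm lost their calls, and Ghitm lost its call without NCsh library 2 as well.

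Genes of cell division fell in nearly every case. Of 36 tested genes of G2 and mitosis 33 fell and 0 rose, with a median log2 difference of -0.73, and their summed level was 250 and 253 RPKM in NCsh against 135 and 131 RPKM in TMBIM6sh. Between 30 and 34 members fell when each of the 8 libraries was left out in turn. The cell cycle homology region, TTTGAA, is an element through which the DREAM complex can repress such genes, and it was searched on both strands. It was found in 23 of the 30 members with a promoter window (76.7%) and in 14.3% of all tested genes with one. Of the DNA replication genes with a window it was found in 15.2%, and of all genes called lower with a window in 17.9%. Members without it in their window, such as Ccnb1 and Birc5, fell too, while Ttk and Knl1 hold it and were not called. The upstream regions of Ccnb2 and Cdc20 are shown with the element in capitals; Ccnb2 has 2 matches and Cdc20 has 1, which begins 18 bases before the start.
Ccnb2, chr9:70421535-70421804, minus strand: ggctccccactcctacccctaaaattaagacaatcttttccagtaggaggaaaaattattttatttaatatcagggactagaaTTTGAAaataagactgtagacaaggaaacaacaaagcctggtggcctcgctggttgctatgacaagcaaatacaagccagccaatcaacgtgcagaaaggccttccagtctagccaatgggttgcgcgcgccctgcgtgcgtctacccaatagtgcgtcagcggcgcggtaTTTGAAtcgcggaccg
Cdc20, chr4:118437324-118437593, minus strand: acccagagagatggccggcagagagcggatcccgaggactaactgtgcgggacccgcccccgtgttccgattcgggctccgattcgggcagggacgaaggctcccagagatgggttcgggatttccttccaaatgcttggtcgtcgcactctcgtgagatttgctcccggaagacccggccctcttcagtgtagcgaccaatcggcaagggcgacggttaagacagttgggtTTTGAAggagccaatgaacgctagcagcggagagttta

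Ccnb2, a cyclin that activates CDK1, had 7.58 and 7.83 RPKM in the NCsh libraries and 2.90 and 2.43 RPKM in the TMBIM6sh libraries (log2 -1.25, SE 0.0865, adjusted p = 2.50e-05). Cdc20, the activator of the anaphase-promoting complex, had 8.82 and 9.69 RPKM in NCsh and 3.88 and 4.31 RPKM in TMBIM6sh, and Ube2c, the ubiquitin-conjugating enzyme of that complex, 15.7 and 17.6 RPKM in NCsh and 8.04 and 6.84 RPKM in TMBIM6sh. Their levels in TMBIM6sh were under those of both NCsh libraries. Mki67, the gene of the proliferation antigen Ki-67, had 21.3 and 18.4 RPKM in NCsh and 10.7 and 9.99 RPKM in TMBIM6sh (log2 -0.88, adjusted p = 8.09e-05). Birc5 (survivin) had 10.0 and 11.1 RPKM in NCsh and 5.28 and 5.63 RPKM in TMBIM6sh and the mitotic kinase gene Plk1 6.57 and 7.05 RPKM in NCsh and 3.05 and 2.91 RPKM in TMBIM6sh. Foxm1, a transcription factor of this gene group, fell by a similar amount (log2 -0.76). The members that did not pass were Knl1, Ttk and Cdc25c, each at a mean under 2 RPKM, with log2 differences of -0.48, -0.31 and -0.32.

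DNA replication genes showed smaller falls. Of 40 tested members 25 fell and 0 rose (median -0.35), without each library in turn 17 to 25 fell, and 1 rose without NCsh library 2. Tk1, thymidine kinase, had 17.4 and 18.5 RPKM in NCsh and 10.1 and 9.23 RPKM in TMBIM6sh (log2 -0.83, adjusted p = 5.06e-05). Rrm1 (log2 -0.67) and Rrm2 (log2 -0.46), the subunits of ribonucleotide reductase, and Fen1 (log2 -0.56), the flap endonuclease, fell as well. The helicase genes Mcm2, Mcm3, Mcm5, Mcm6 and Mcm7 were called lower at -0.37, -0.29, -0.46, -0.33 and -0.37, and Mcm4 was not called (-0.19). Of these calls, Mcm6 and Mcm7 were lost without TMBIM6sh library 1 and Mcm2 and Mcm3 without TMBIM6sh library 2. Pcna, the sliding clamp, was not called and had a log2 difference of 0.12. Among 22 genes of the G1 machinery 5 rose (22.7%) and 6 fell (27.3%), against 10.4% and 13.8% of all tested genes. Cdkn2b, the CDK inhibitor p15, had 1.85 and 2.22 RPKM in NCsh and 4.04 and 5.58 RPKM in TMBIM6sh (log2 0.93, adjusted p = 9.81e-04), and E2f2, a transcription factor of S phase entry, 2.73 and 2.25 RPKM in NCsh and 0.912 and 0.988 RPKM in TMBIM6sh (log2 -0.84, adjusted p = 8.63e-04). Cdkn1a, the inhibitor p21, had a mean of 247 RPKM in NCsh and 240 RPKM in TMBIM6sh and was not called. Without NCsh library 2 the number that rose in this list was 3, and without TMBIM6sh library 1 or 2 it was 1, and 2 or 3 fell.

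Of 19 tested p53 targets 6 rose and 1 fell. Between 4 and 6 rose without each library in turn, and 2 fell without NCsh library 1 or TMBIM6sh library 2. Ei24, an ER protein gene first found through p53, had 21.1 and 24.3 RPKM in NCsh and 37.4 and 37.3 RPKM in TMBIM6sh (log2 0.70, adjusted p = 3.96e-04). Ccng1, cyclin G1, had 71.0 and 67.9 RPKM in NCsh and 96.6 and 96.1 RPKM in TMBIM6sh (log2 0.47, adjusted p = 4.16e-04). Plk2 (log2 0.35) and the exonuclease gene Aen (log2 0.35) rose too, whereas Trp53inp1 fell with 17.1 and 16.1 RPKM in NCsh and 7.85 and 8.28 RPKM in TMBIM6sh (log2 -0.96, adjusted p = 3.00e-05). Mdm2 (0.14), Cdkn1a (-0.04) and Bbc3 (-0.18), which are strong p53 targets, were not called, so the list did not move as one.

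In the circadian clock 11 of 18 tested genes fell and 3 rose (median -0.52). Dbp, a transcription factor driven directly by the clock, had 12.2 and 13.0 RPKM in the NCsh libraries and 2.83 and 4.01 RPKM in the TMBIM6sh libraries (log2 -1.64, SE 0.129, adjusted p = 4.02e-05). Repressors of the loop fell: Nr1d1 and Nr1d2, the REV-ERB receptors, had log2 differences of -0.94 and -0.75, Per2 -0.87, Per3 -0.60, Cry1 -0.39, Ciart -1.21 and Bhlhe40 -0.97. Of the activators, Clock had 7.98 and 7.65 RPKM in NCsh and 4.95 and 4.91 RPKM in TMBIM6sh and fell (log2 -0.57). Its partner Arntl, known as BMAL1, had 1.91 and 1.70 RPKM in NCsh and 3.75 and 3.46 RPKM in TMBIM6sh and rose (log2 0.72, adjusted p = 9.92e-04). Nfil3, which opposes Dbp on shared sites, rose too (log2 0.56, adjusted p = 0.0152), and Per1 was not called (log2 -0.04). The labels give no time of collection. Between 8 and 11 fell without each library in turn, Per3 and Cry1 losing their calls without TMBIM6sh library 1, and 7 fell with a filter of 5 RPKM, which removes the lowest of them. Without TMBIM6sh library 2 1 rose, and Nfil3 was not called there or without NCsh library 2.

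**Figure D2:**
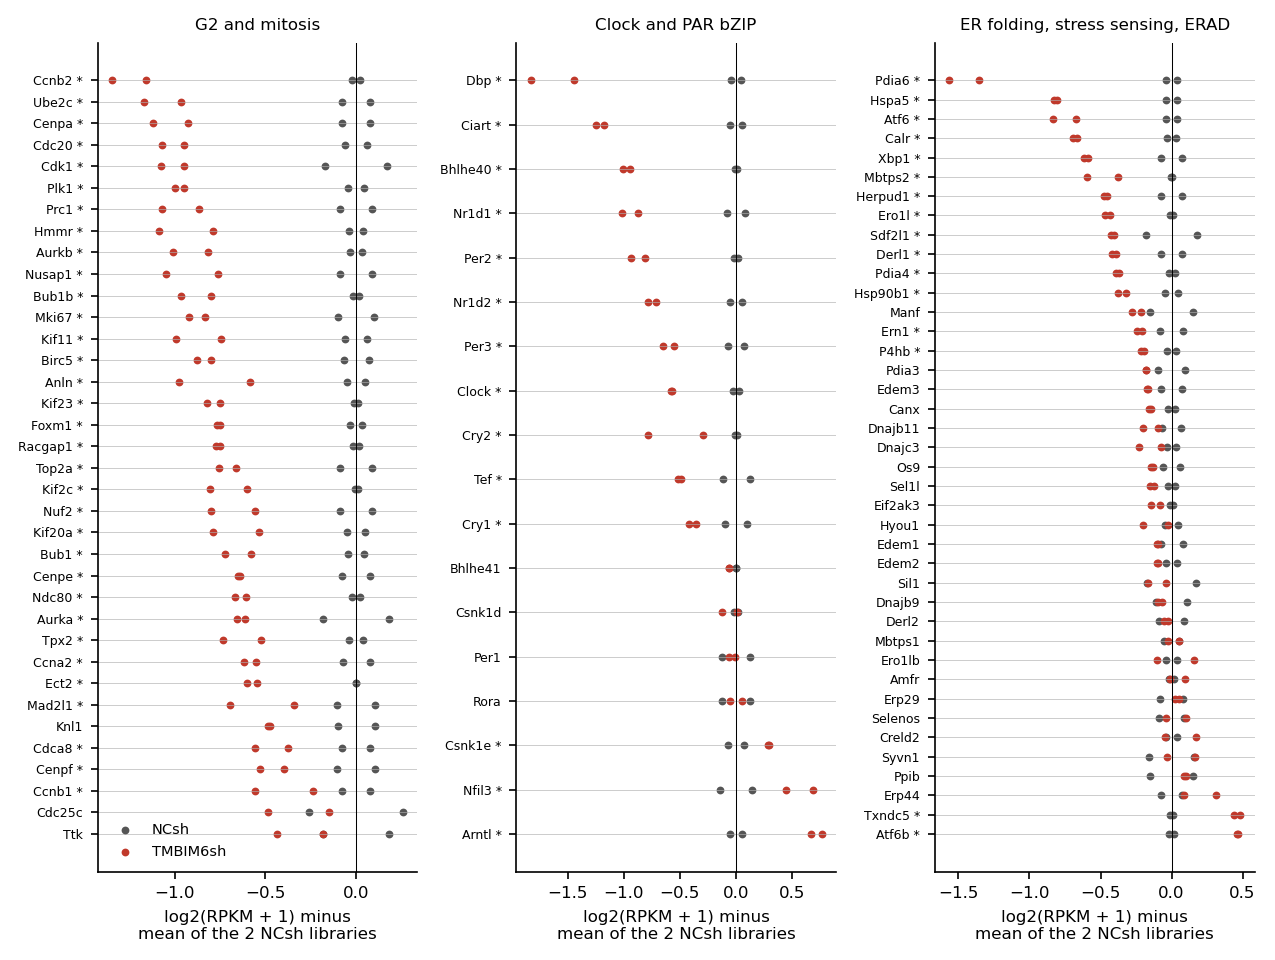
Each row is a tested gene and each point a library: the x axis is its log2(RPKM + 1) minus the mean of the 2 NCsh libraries, grey for NCsh and red for TMBIM6sh, with an asterisk where the gene was called. In G2 and mitosis the red points lie left of the grey ones almost throughout (33 of 36 called), whereas in the other panels Arntl, Nfil3, Csnk1e, Txndc5 and Atf6b lie to the right.

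Iron-handling genes gave 5 rises and 4 falls among 18 tested, and the rises included the ferritin gene Fth1. Slc40a1, ferroportin, the iron exporter of macrophages, had 15.6 and 15.8 RPKM in the NCsh libraries and 68.7 and 72.8 RPKM in the TMBIM6sh libraries (log2 2.10, SE 0.0691, adjusted p = 4.45e-07). Hmox1, heme oxygenase 1, had 967 and 1097 RPKM in NCsh and 1957 and 1978 RPKM in TMBIM6sh, and Slc48a1, the carrier that brings heme out of the phagolysosome, 114 and 115 RPKM in NCsh and 214 and 215 RPKM in TMBIM6sh. Fth1, the ferritin heavy chain, had 14107 and 14152 RPKM in NCsh and 27389 and 26966 RPKM in TMBIM6sh (log2 0.94, adjusted p = 0.00136). The ratio of means was 4.50 for Slc40a1, 1.91 for Hmox1, 1.87 for Slc48a1 and 1.92 for Fth1, whose call was lost with no filter (adjusted p = 0.621). Its light-chain partner Ftl1 had means of 20076 and 21618 RPKM and was not called (log2 0.11); both ferritins have many processed pseudogenes that could take reads. Ncoa4, the receptor that delivers ferritin to lysosomes, had 43.5 and 42.5 RPKM in NCsh and 25.7 and 21.9 RPKM in TMBIM6sh (log2 -0.83, adjusted p = 1.07e-04). Ireb2, which encodes the iron regulatory protein IRP2, fell (log2 -0.39), and the transferrin receptor gene Tfrc was not called (log2 -0.15). The iron falls numbered 2 without TMBIM6sh library 1 or 2.

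Metallothioneins, small proteins that bind zinc and copper, fell. Mt2 had 118 and 158 RPKM in the NCsh libraries and 38.3 and 40.5 RPKM in the TMBIM6sh libraries (log2 -1.77, SE 0.129, adjusted p = 3.01e-05), and Mt1 had 175 and 227 RPKM in NCsh and 96.8 and 102 RPKM in TMBIM6sh (adjusted p = 1.68e-04). NCsh library 2 was the highest for both, and NCsh library 1 was above both TMBIM6sh libraries too. The upstream region of Mt2 is shown because it holds 4 matches, in capitals, to the metal response element core of the zinc sensor MTF-1 (TGCACNC or TGCGCNC, both strands). That short core was also found in 40.5% of all tested genes with a window.
Mt2, chr8:94172368-94172637, plus strand: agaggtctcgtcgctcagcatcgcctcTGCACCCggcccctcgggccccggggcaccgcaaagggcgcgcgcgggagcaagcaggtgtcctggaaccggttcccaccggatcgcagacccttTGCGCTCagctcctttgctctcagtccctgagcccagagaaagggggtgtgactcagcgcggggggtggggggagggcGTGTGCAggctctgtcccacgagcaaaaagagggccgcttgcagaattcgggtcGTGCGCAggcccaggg
The zinc importer genes Slc39a1 (log2 -0.65) and Slc39a10 (log2 -0.58) fell, and the zinc exporter gene Slc30a1, a known MTF-1 target, rose slightly with 5.48 and 4.86 RPKM in NCsh and 7.08 and 6.50 RPKM in TMBIM6sh (log2 0.34, adjusted p = 0.0323). In the zinc list 4 of 16 fell (25.0%) and 3 rose (18.8%), against 13.8% and 10.4% of all tested genes. The calls of these rises were lost without NCsh library 2 or either TMBIM6sh library.

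Targets of the antioxidant regulator NRF2 split, with 4 rises and 11 falls among 24 tested. Besides Hmox1, Gclm (log2 0.39) and Gsr (log2 0.38), enzymes of glutathione synthesis and recycling, rose. Nqo1 had 3.91 and 3.68 RPKM in NCsh and 1.74 and 1.89 RPKM in TMBIM6sh (log2 -0.77, adjusted p = 6.71e-04), and Gpx1 (log2 -0.56), Gpx4 (log2 -0.40), Txn1 (log2 -0.48) and Gstm1 (log2 -0.44) fell. Nfe2l2, which encodes NRF2, differed by -0.22 and its inhibitor Keap1 by -0.26, both called lower but not without either TMBIM6sh library, nor without NCsh library 1 for Nfe2l2 and NCsh library 2 for Keap1. The number that fell was 6 without TMBIM6sh library 1 or 2.

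The 15 largest rises and 15 largest falls were taken among called genes with at least 5 RPKM in the higher group and groups that did not overlap. The rises were led by Cx3cr1, the receptor of the chemokine fractalkine and a marker of monocytes and resident macrophages. It had 6.08 and 5.51 RPKM in the NCsh libraries and 31.8 and 32.1 RPKM in the TMBIM6sh libraries, a ratio of means of 5.51 (log2 2.28, SE 0.0798, adjusted p = 5.32e-07). Laptm5, a lysosomal membrane protein gene of blood cells, had 124 and 112 RPKM in NCsh and 445 and 475 RPKM in TMBIM6sh (log2 1.96). The duplicates of both genes lay close together. Ccl5, the chemokine RANTES, had 17.9 and 22.2 RPKM in NCsh and 66.7 and 58.6 RPKM in TMBIM6sh (log2 1.60), and Fgl2, a fibrinogen-like protein gene, 7.39 and 6.87 RPKM in NCsh and 22.9 and 21.7 RPKM in TMBIM6sh (log2 1.52). Ch25h, which makes 25-hydroxycholesterol, had 2.97 and 4.21 RPKM in NCsh and 11.3 and 11.0 RPKM in TMBIM6sh (log2 1.42). Both TMBIM6sh libraries were above both NCsh libraries for these 3, as the rule for naming them required. Plau, the urokinase plasminogen activator, had 61.2 and 57.8 RPKM in NCsh and 133 and 146 RPKM in TMBIM6sh (log2 1.21). The remaining 8 beside Slc40a1 had log2 differences from 1.14 to 1.45: the receptor gene Gpr31b, the calmodulin-dependent kinase gene Camk1d, the RNA-binding protein genes Igf2bp2 and Raver2, the repressor gene Zbtb18, Cmtm3, the reductase gene Cyb5r4 and the SUMO protease gene Uspl1.

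Among the 15 largest falls Tusc2, a small candidate tumour suppressor gene, had 23.7 and 24.8 RPKM in the NCsh libraries and 4.81 and 5.04 RPKM in the TMBIM6sh libraries (log2 -2.09, SE 0.0783, adjusted p = 7.46e-07). Clec4n, the fungal receptor dectin-2, had 8.76 and 10.1 RPKM in NCsh and 1.96 and 2.55 RPKM in TMBIM6sh (log2 -1.69), and Cav2, caveolin-2, a log2 difference of -1.69. The TMBIM6sh mean was 0.203, 0.239 and 0.298 times the NCsh mean for these 3. Tgfbi, a matrix protein gene induced by TGF-beta, had 44.5 and 45.6 RPKM in NCsh and 13.3 and 13.4 RPKM in TMBIM6sh (log2 -1.68), and the membrane protein gene Emp1 52.2 and 54.4 RPKM in NCsh and 17.0 and 17.9 RPKM in TMBIM6sh (log2 -1.55). Scoc, a Golgi coiled-coil protein gene, had 19.0 and 19.6 RPKM in NCsh and 5.40 and 6.04 RPKM in TMBIM6sh (log2 -1.60). Gcnt1 and Slc35a3 belong to Golgi glycosylation, as the branching enzyme of O-glycans and a carrier of UDP-N-acetylglucosamine, with log2 differences of -1.45 and -1.26. Il16 had 6.41 and 7.16 RPKM in NCsh and 1.82 and 2.01 RPKM in TMBIM6sh (log2 -1.41), Blnk, an adaptor downstream of immune receptors, 32.8 and 29.6 RPKM in NCsh and 11.4 and 11.0 RPKM in TMBIM6sh (log2 -1.40), and Dcp2, the mRNA decapping enzyme, 9.26 and 8.24 RPKM in NCsh and 2.92 and 2.95 RPKM in TMBIM6sh (log2 -1.31). Mir7652 also met the rule, on few reads, and its call was lost in 5 of 17 alternatives. Dbp, Pdia6 and Mt2 complete the group. Among the 15 falls Mir7652 was the one exception: the other 14, and all 15 rises, kept their call in each of the 17 alternatives.

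**Figure D3:**
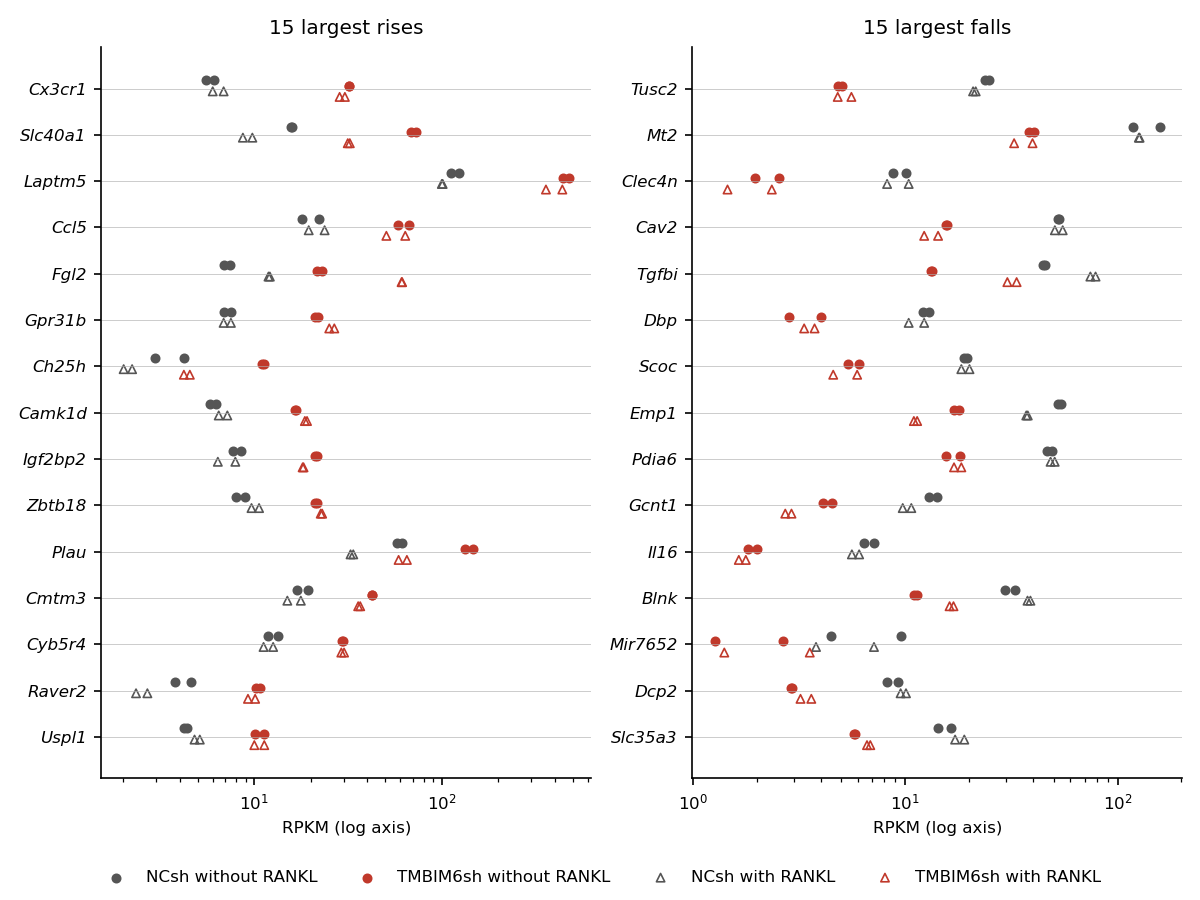
RPKM of the 15 largest rises and 15 largest falls in each of the 8 libraries, on a log axis: filled circles are libraries without RANKL, open triangles those with RANKL, grey for NCsh and red for TMBIM6sh. Within each RANKL state the red and grey symbols stay apart for all of the rises, which the rule for naming them required without RANKL. Fgl2 and Ch25h shift between the states.

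Secreted and surface immune genes changed in both directions. Of 16 tested chemokine genes 3 rose (18.8%) and 4 fell (25.0%), against 10.4% and 13.8% of all tested genes. Fewer fell without TMBIM6sh library 1. Pf4, platelet factor 4, had 49.7 and 64.6 RPKM in NCsh and 107 and 102 RPKM in TMBIM6sh (log2 0.87, adjusted p = 6.75e-04). Ccl7, an attractant of monocytes, had 21.2 and 22.7 RPKM in NCsh and 15.1 and 16.2 RPKM in TMBIM6sh (log2 -0.47, adjusted p = 0.00154), while Ccl2 (-0.10), Ccl3 (0.13) and Ccl4 (-0.01) were not called. Tnf, the inflammatory cytokine, had 47.2 and 50.5 RPKM in NCsh and 75.3 and 73.4 RPKM in TMBIM6sh (log2 0.60, adjusted p = 1.57e-04). Il1rn, the natural blocker of the interleukin-1 receptor, had 25.1 and 22.9 RPKM in NCsh and 14.1 and 13.9 RPKM in TMBIM6sh (log2 -0.73, adjusted p = 9.83e-05). Spp1, osteopontin, had 378 and 420 RPKM in NCsh and 240 and 247 RPKM in TMBIM6sh (log2 -0.71) and Vegfa, an angiogenic factor, 24.6 and 23.5 RPKM in NCsh and 17.1 and 17.4 RPKM in TMBIM6sh (log2 -0.46). Tnf was higher and the other 3 lower in both TMBIM6sh libraries. Among receptors of chemoattractants beside Cx3cr1, Cxcr4 fell (log2 -0.44) and Fpr2, a formyl peptide receptor, rose (log2 0.43).

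Among 15 C-type lectin genes 3 rose and 4 fell. Clec4a3 (log2 -0.73) and Mrc1, with 14.9 and 14.5 RPKM in NCsh and 8.23 and 9.46 RPKM in TMBIM6sh, fell beside Clec4n, and Clec5a (log2 0.51), Clec12a (log2 0.44) and Clec4e, the receptor Mincle (log2 0.31), rose. Cd33, a receptor gene of the sialic acid-binding family, had 38.7 and 34.4 RPKM in NCsh and 14.7 and 14.7 RPKM in TMBIM6sh (log2 -1.26, adjusted p = 2.06e-05). Cd55, which protects cells from complement, had 5.44 and 6.00 RPKM in NCsh and 12.8 and 13.6 RPKM in TMBIM6sh (log2 1.08, adjusted p = 2.98e-05). Marco, a scavenger receptor, rose (log2 0.58, adjusted p = 2.42e-04), while Cd36 (-0.17) and Msr1 (0.06) were not called. Cd86, a costimulatory molecule for T cells, had 14.4 and 15.3 RPKM in NCsh and 7.33 and 7.29 RPKM in TMBIM6sh (log2 -0.93, adjusted p = 4.02e-05). In the class I presentation list 9 of 19 fell and 0 rose, led by H2-Q6 (log2 -0.65) and H2-T23 (log2 -0.41), while the abundant B2m (0.01) and H2-D1 (-0.05) were not called; H2-Q6 and H2-Q7 are near-identical copies, and the split of reads between them is uncertain. The number that fell was 4 without TMBIM6sh library 1 and 5 without library 2, and 1 rose without NCsh library 2. Of 29 interferon-stimulated genes 7 fell and 1 rose, Irf7 with 18.2 and 16.2 RPKM in NCsh and 12.7 and 12.7 RPKM in TMBIM6sh (log2 -0.41) among the falls and the RNA sensor gene Ifih1 (log2 0.48) as the rise; 11 fell with limma-voom on the recovered reads.

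Lysosomal and degradative genes were lower in part. Of 36 genes of lysosomal hydrolases and membrane proteins 13 fell and 5 rose (median -0.16). Lgmn, the asparaginyl protease legumain, had 401 and 443 RPKM in NCsh and 271 and 271 RPKM in TMBIM6sh (log2 -0.64, adjusted p = 1.76e-04). Lipa, the acid lipase, had a log2 difference of -0.37, Ctsd, the abundant protease cathepsin D, one of -0.47 that was not called without either TMBIM6sh library, and Npc1, the cholesterol exporter of lysosomes, one of 0.49. The falls numbered 4 without TMBIM6sh library 1 and 5 without library 2, and the rises 3 without NCsh library 2 and 2 without TMBIM6sh library 1 or 2. Subunits of the proton pump that acidifies lysosomes fell unevenly, with 6 of 17 V-ATPase genes called lower and 0 higher, or 2 higher without NCsh library 2. Atp6v1a, the catalytic subunit, had 137 and 132 RPKM in NCsh and 73.3 and 70.1 RPKM in TMBIM6sh (log2 -0.90, adjusted p = 2.49e-05), and Atp6v1g1 219 and 264 RPKM in NCsh and 134 and 127 RPKM in TMBIM6sh (log2 -0.88, adjusted p = 1.26e-04). Atp6v0c and Tcirg1, subunit genes of the membrane sector, were not called.

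In lipid handling, 7 of 18 tested genes of the LXR programme fell and 1, Ch25h, rose (median -0.18). Nceh1, a cholesteryl ester hydrolase, had 100 and 97.1 RPKM in NCsh and 62.4 and 64.9 RPKM in TMBIM6sh (log2 -0.62, adjusted p = 1.08e-04). Abcg1, a cholesterol exporter, had 33.0 and 32.8 RPKM in NCsh and 22.8 and 23.6 RPKM in TMBIM6sh (log2 -0.48), Nr1h3, which encodes LXR-alpha, 25.9 and 26.3 RPKM in NCsh and 18.1 and 19.6 RPKM in TMBIM6sh (log2 -0.45), and Apoe a log2 difference of -0.50; Abca1 was not called (-0.14). Without each library in turn 6 or 7 fell. Among 24 cholesterol synthesis genes 4 rose and 2 fell. That list had 2 rises without TMBIM6sh library 1 or 2 and 8 with limma-voom, and 0 or 1 falls without NCsh library 2 or either TMBIM6sh library. Glycolysis genes were near the background, with 2 rises and 3 falls among 21, and 1 rise without either TMBIM6sh library.

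Of the housekeeping complexes, 1 of 30 tested ribosomal protein genes fell and 0 rose, but 9 fell without NCsh library 1 and 1 rose without NCsh library 2. The one called with all libraries was Rpl5, with 160 and 195 RPKM in NCsh and 110 and 109 RPKM in TMBIM6sh (log2 -0.69, adjusted p = 4.19e-04). Among 30 respiratory chain genes 6 fell and 1 rose, but this list moved with NCsh library 2: without it 3 fell and 6 rose, and without NCsh library 1 14 fell. The one that rose, Atp5b, the catalytic subunit of ATP synthase, had 146 and 159 RPKM in NCsh and 248 and 246 RPKM in TMBIM6sh (log2 0.70, adjusted p = 1.36e-04). Without TMBIM6sh library 1 or 2, 2 and 1 respiratory genes fell.

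Genes of osteoclast formation and resorption were near the background before RANKL. Of 22 tested members 4 rose and 2 fell. Ctsk, Calcr, Oscar, Ocstamp, Itgb3 and Car2 were too low to test over all 8 libraries, those with RANKL included. Mmp9, a matrix metalloproteinase of osteoclasts, had 12.7 and 12.7 RPKM in the NCsh libraries and 22.2 and 21.6 RPKM in the TMBIM6sh libraries (log2 0.74, SE 0.0596, adjusted p = 4.51e-05). Atp6v0d2, a proton pump subunit gene needed for cell fusion, had 14.9 and 14.8 RPKM in NCsh and 10.3 and 9.59 RPKM in TMBIM6sh (log2 -0.54, adjusted p = 5.86e-04). The master regulator Nfatc1 had a log2 difference of -0.07, its repressor Irf8 one of 0.03, Fos one of 0.15 and Tnfrsf11a, which encodes the RANKL receptor RANK, one of 0.03; none was called. The rises numbered 2 without either NCsh library and 1 without either TMBIM6sh library. Of 23 integrin and podosome genes 4 rose, or 2 without TMBIM6sh library 2, and 4 fell. Itga5, the fibronectin receptor subunit, had 57.1 and 52.2 RPKM in NCsh and 88.0 and 92.1 RPKM in TMBIM6sh (log2 0.71, adjusted p = 1.17e-04), and Vasp, an actin-binding protein gene, 96.4 and 96.9 RPKM in NCsh and 68.7 and 69.2 RPKM in TMBIM6sh (log2 -0.48, adjusted p = 6.16e-04). In the TGF-beta list 2 of 23 rose, or 1 without TMBIM6sh library 2, and 3 fell. Ski, a repressor of SMAD signalling, had 15.5 and 14.1 RPKM in NCsh and 32.0 and 31.6 RPKM in TMBIM6sh (log2 1.06, adjusted p = 2.50e-05). Tgfb1, Smad2, Smad3 and Smad4 were not called. Of 14 genes of small RNA processing, the machinery that hairpins also use, 3 rose and 2 fell, or 1 and 0 without either TMBIM6sh library, and 0 fell without NCsh library 1 and 1 without any 1 of the RANKL-treated libraries. Ago2, the slicing Argonaute, differed by -0.29 (adjusted p = 0.0245), a call that was lost without NCsh library 1 or either TMBIM6sh library. Tarbp2, a partner of Dicer, had 9.77 and 8.98 RPKM in NCsh and 14.7 and 14.4 RPKM in TMBIM6sh (log2 0.58, adjusted p = 6.58e-04), and Dicer1 differed by 0.20, which was not called.

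**Figure D4:**
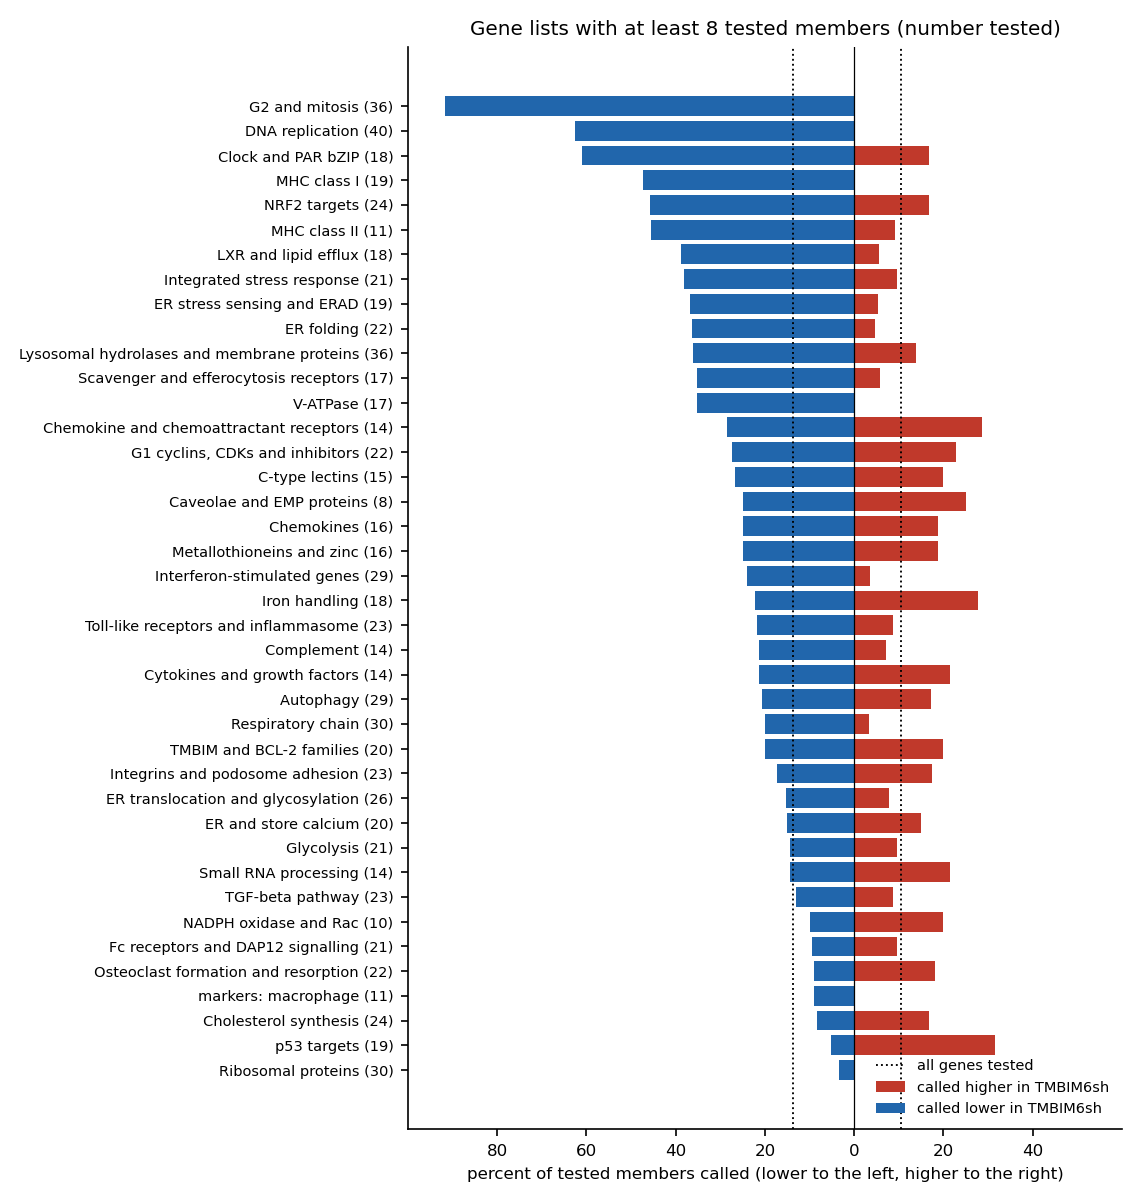
Bars give the percent of tested members of each gene list called lower (blue, left) or higher (red, right) in TMBIM6sh, with the number tested in brackets; dotted lines mark the share of all 11040 genes, 13.8% lower and 10.4% higher. G2 and mitosis (91.7% lower), DNA replication (62.5%) and clock genes (61.1%) extend farthest to the left, and p53 targets (31.6% higher) farthest to the right.

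The same hairpins were compared in the 4 libraries with RANKL, which share no library with the comparison above. The spread of each gene was estimated once from all 8 libraries, so the 2 sets of calls are not independent. Separate fits of 4 libraries called 2025 genes without RANKL and 3060 with it. In the joint fit 3157 genes were called with RANKL (28.6%), 986 higher (8.93%) and 2171 lower (19.7%). With median-ratio scaling the split there was 1580 higher and 1680 lower. Of the 1147 genes that rose without RANKL, 724 (63.1%) also rose with it, which is 73.4% of those that rose there. Of the 1526 that fell, 1218 (79.8%) also fell with RANKL, which is 56.1% of those that fell there. Among differences of at least 2-fold without RANKL, 57 of 71 rises and 134 of 160 falls were also called with it. Of those of at least 4-fold, 2 of 9 rises and 9 of 15 falls were. Across the 11040 genes the log2 differences of the 2 states correlated at 0.775 (Pearson) and 0.736 (Spearman), given as a description; genes of 1 library are not independent. In the G2 and mitosis list 35 fell with RANKL, in the clock list 11 fell and 2 rose, and in ER folding 7 fell and 1 rose.

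The difference between the 2 hairpin effects, tested for each gene, was called for 1 gene, the small nucleolar RNA Snord104 (0.00906% of genes), with 857 genes at an unadjusted p under 0.05. Among genes with at least 5 RPKM in a group the smallest p belonged to Fgl2. With RANKL it had 12.1 and 11.9 RPKM in NCsh and 61.4 and 61.0 RPKM in TMBIM6sh, so both states showed a rise and the one with RANKL was larger (log2 1.52 without and 2.26 with RANKL, adjusted p = 0.0725 for the difference). Mmp9 followed the same order (log2 0.74 and 1.22, adjusted p = 0.510 for the difference). Ints6l, an Integrator complex gene, had 5.36 and 5.79 RPKM in NCsh and 9.09 and 9.52 RPKM in TMBIM6sh without RANKL and 5.25 and 5.09 RPKM in NCsh and 5.37 and 5.61 RPKM in TMBIM6sh with it (adjusted p = 0.510 for the difference). Fam8a1, an ER-associated degradation gene, fell with RANKL (log2 -0.96) and was not called without it (log2 -0.19, adjusted p = 0.510 for the difference). The 2 short RNA genes of this group, Mir1893 and Mir3074-1, had adjusted p values of 0.113 and 0.510. The adjusted p of these 6 was above the threshold, which does not show that their effects were alike.

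**Figure D5:**
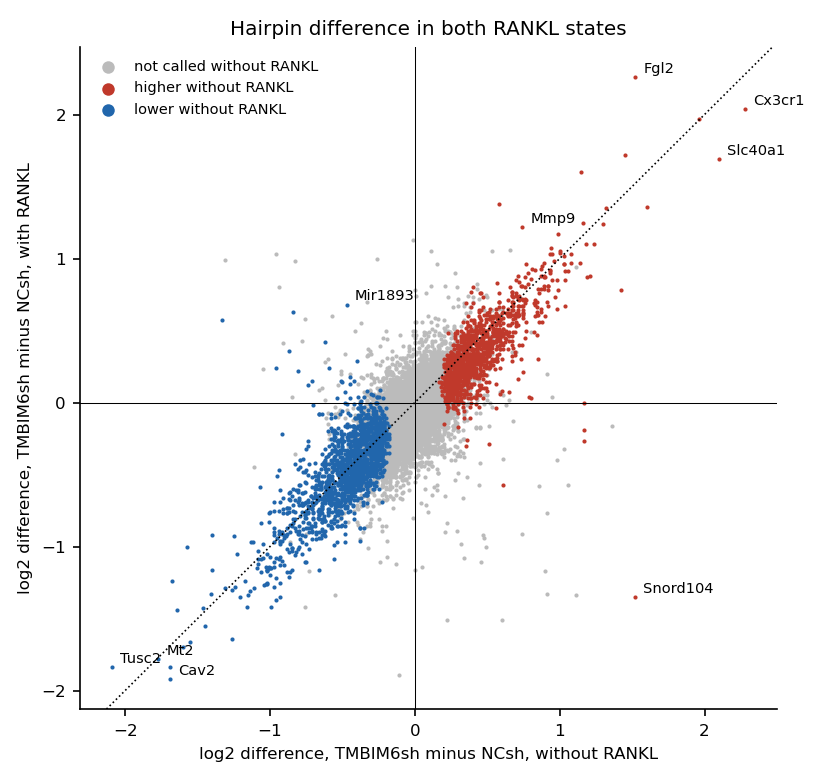
Each point is a tested gene other than Tmbim6: the x axis is the log2 difference of TMBIM6sh minus NCsh without RANKL and the y axis the same with RANKL, coloured by the call without RANKL, with a dotted line of equality. Most called genes lie near the line (Pearson r 0.770 over all genes without Tmbim6), Fgl2 and Mmp9 lie above it, and Snord104 lies in the lower right.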

How the data were processed

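RNA sequencing values were taken for 8 libraries in 4 groups of 2. The RPKM values were made by the authors, per the file headers, with HOMER analyzeRepeats on mm10, counting reads in exons on both strands and joining transcripts of a gene; the column heads say FPKM. HISAT2, HOMER and DESeq2 are named without versions in the submitters' processing notes. The aligner's settings and annotation release are not given in the sources used here. Strand was not used, so overlapping and antisense genes cannot be told apart.

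Genes with at least 1 RPKM in at least 2 of the 8 libraries (11040 of 24940 listed) were tested on log2(RPKM + 1), which understates changes of low genes. limma 3.58.1 in R 4.3.3 fitted the means of 4 groups with an intensity trend, and p-values were adjusted by Benjamini-Hochberg over 11040 genes, with a call at an adjusted p under 0.05. With 2 libraries against 2, an exact two-sided permutation test of a single gene cannot go below 0.333, so none was used. Steps between low RPKM values gave whole reads (100% of checked values within 0.1 read) and hence the depth; limma-voom on those reads, one of 17 alternatives, called 3215 genes. The others were pseudocounts, filters, scaling, no trend, a replicate block, the 4 libraries alone and leaving out each library. The fitting code was also run on simulated counts, as a check of the code only, and no result here rests on that run.

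Genes named are Tmbim6, the 15 largest called rises and 15 largest falls with at least 5 RPKM in the higher group and groups that did not overlap, members of the gene lists, the 6 genes with the smallest p for a difference between RANKL states among genes with at least 5 RPKM in a group, and genes within 200 kb of Tmbim6. The comparison, lists and rule were chosen with earlier results of these data known. Promoter sequences are from RefSeq (GRCm38.p6).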

Additional observations from a re-analysis of the deposited data

Results flagged for a closer look

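Snord104, a small nucleolar RNA gene on chromosome 11, was picked out because the hairpin difference was not the same in the 2 RANKL states. Without RANKL it had 0.525 and 0.974 RPKM in the NCsh libraries and 4.08 and 3.90 RPKM in the TMBIM6sh libraries, from 1 and 2 against 8 and 8 reads. With RANKL it had 5.45 and 3.40 RPKM in NCsh and 1.08 and 1.09 RPKM in TMBIM6sh. The log2 differences were 1.52 and -1.35, and limma gave 2.88 for the first minus the second (adjusted p = 0.00998). The reads behind these values are few.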

How the results depend on the processing

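The 2673 calls without RANKL stayed within 1.5 times under each alternative other than leaving out TMBIM6sh library 1 or 2; leaving out each library in turn gave 1396 to 2523. With RANKL the 3157 calls became 1870 to 3558 when each library was left out. The difference between the 2 hairpin effects was called for 1 gene, for 0 with a filter of 5 RPKM, 8 with no filter, 2 with no intensity trend, 2 with a pseudocount of 3, and 0 to 2 when each library was left out. Without RANKL, median-ratio scaling called 1343 higher and 1459 lower, limma-voom 1411 and 1804, and no filter 872 and 1116 of 18292 genes. The replicate block gave 2654 calls. Libraries with the same replicate number did not deviate together (correlations of -0.0651 to 0.0625), so no pairing by number was seen, which does not exclude a weak one. The cause of these moves was not tested. Of the 15 largest rises and 15 largest falls, Mir7652 lost its call, in 5 of 17 alternatives, and Mir1893, named for its difference between RANKL states, lost its call without RANKL in 4, NCsh library 2 or TMBIM6sh library 2 left out among them. Of 345 called genes checked, 194 kept their call in each alternative that tested them. A sample left alone in its group is assumed to vary like the others. Depth limits short and low genes: 11040 of 24940 listed genes passed the filter.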

Other observations

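Other macrophage gene lists without RANKL were called in both directions, against 10.4% of all tested genes higher and 13.8% lower. The genes named here kept their call in each of the 17 alternatives, except that H2-DMb2 was too low to be tested with the filter of 5 RPKM. Of 11 tested genes of class II presentation and costimulation 5 fell and 1 rose, or 2 falls without NCsh library 2 and 3 without either TMBIM6sh library, and 0 rose without any 1 of the 4 libraries without RANKL. Beside Cd86, H2-DMb2, part of the peptide loader of class II molecules, had 3.78 and 3.06 RPKM in NCsh and 1.46 and 1.22 RPKM in TMBIM6sh (log2 -0.92, adjusted p = 8.00e-04). Both TMBIM6sh libraries were below both NCsh libraries. Of 14 complement genes 3 fell, or 1 without either TMBIM6sh library and 5 without NCsh library 1, and 1, Cd55, rose, or 2 without either RANKL-treated TMBIM6sh library. Of 17 scavenger and efferocytosis receptor genes 6 fell and 1, Marco, rose, with 2 to 5 falls when each library was left out. The integrin subunit genes Itgav (log2 -0.44) and Itgb5 (log2 -0.38), whose products pair to bind apoptotic cells, were among the falls.

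Of 29 autophagy genes 5 rose and 6 fell, and the counts without each library in turn were 1 to 5 and 2 to 7, with 1 to 3 rises without any 1 of the 4 libraries without RANKL and 2 or 3 falls without either TMBIM6sh library. Map1lc3a, a member of the LC3 family that coats autophagosomes, had a mean of 13.8 RPKM in NCsh and 7.46 RPKM in TMBIM6sh (log2 -0.80, adjusted p = 5.21e-04). Atg7, the activating enzyme of LC3 conjugation, fell (log2 -0.42) and Atg14, a subunit of the kinase that starts autophagosomes, rose (log2 0.46). Among 23 genes of Toll-like receptors and inflammasomes 2 rose and 5 fell, with 0 to 2 rises and 1 to 6 falls when each library was left out, and Tlr9, the receptor for unmethylated DNA, had 5.08 and 4.82 RPKM in NCsh and 3.15 and 2.92 RPKM in TMBIM6sh (log2 -0.56, adjusted p = 0.00237). Vav1, an activator of Rac in blood cells, rose (log2 0.36) beside 1 other rise and 1 fall among 10 genes of the NADPH oxidase and Rac, neither of which was called without either TMBIM6sh library; the fall was also lost without NCsh library 2 or either RANKL-treated NCsh library. In the Fc receptor and DAP12 list 2 of 21 rose and 2 fell, and Cd33 was the one of these whose call was kept throughout.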
